A study of Rattus norvegicus with 6 samples.

Results

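A set of 39 genes best known from enterocytes, the absorptive cells that line the small intestine, was followed in rat pancreatic islets, the clusters of hormone-secreting cells in the pancreas. The genes were listed by symbol with adult and P10 values of these samples already known. A probe was found for 30 of the 39 through its RefSeq transcript, out of 13903 genes named on the array in this way, and the brightest probe stood for a gene. The samples were islets of 3 adult male rats and islets from 3 pools of rats aged 10 days (P10), all freed from the pancreas with collagenase. Each sample was read on 1 array in a single colour. The labels used here give no strain, genotype or treatment for either stage, no age for the adults, and neither the sex nor the number of the pooled P10 rats, so age and sex cannot be told apart between the stages.

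Enterocytes carry a brush border, a carpet of microvilli built on bundled actin and tied together at their tips by protocadherins. Its membrane holds enzymes that finish the digestion of sugars and peptides, and transporters that take up glucose, peptides, amino acids, ions and bile acids. Homeobox factors of the Cdx family direct the intestinal programme of these cells. Not all of the genes are limited to the gut: Cubn, Amn, Enpep and Anpep are also known from the kidney tubule, Dpp4 from many epithelia, and Vil1 from other simple epithelia.

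A level is the log2 signal of a probe minus the 75th percentile of log2 signals on the same array, so that a level of 0 is as bright as that percentile. A difference is adult minus P10 on the log2 scale, with its standard error (SE) from a limma fit over all 18355 probes tested, and a call is an adjusted p under 0.05 in that fit. Each array had 17823 to 18725 of its 24684 probes well above background, no spot was saturated, and the number of arrays limits the precision. Adult arrays 2 and 3 differed by about as much as repeated spots of 1 array, and so did P10 arrays 1 and 2. Each of these pairs was averaged and counted as 1 sample, which leaves n = 2 per stage in every mean, SD and fit. P10 array 3 lay as close to the other P10 arrays as adult arrays 2 and 3 to each other but was kept as its own sample, so the P10 spread may be largely technical, and any p-value measures only the spread between these samples. Adult array 1 shared its scan time, taken as a slide, with all P10 arrays, and adult arrays 2 and 3 shared the other. In bulk samples fewer cells of a type and less RNA per cell cannot be told apart.

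Most of the enterocyte genes were far lower in adult islets. Of the 30 genes with a probe, 27 were tested, and of these 24 were lower in adults, 1 was higher (Enpep) and 2 were not called (Cubn and Gucy2c). Among the 11404 named genes tested, 28.8% were called lower, 23.7% higher and 47.5% neither; because the genes were chosen with this contrast known, their count is a description and nothing is read from it. Their median difference was -4.05, against -0.13 over all named genes tested, and it was -4.47 on the slide that held both stages. That slide has a single adult array, so calls there take their spread from the P10 arrays alone: 23 were lower and 3 higher, where 49.4% and 30.5% of all probes tested were called. Anpep and Dpp4 were not tested because spots marked as uneven left a counted sample without a value, and Abcg8 was well above background on no array. No probe was matched for Cdhr2, Cdx1, Lct, Sis, Mgam, Mep1a, Mep1b, Slc51b and Npc1l1. The mean level of the 26 tested genes read on all arrays ran from -5.32 to -5.02 on the adult arrays and from 0.09 to 0.15 on the P10 arrays. Of the 30 genes, 20 stood well above background on each adult array and 8 on none, against 27 and 1 in P10 islets. Over all 13903 named genes these counts were 10864 and 1943 in adult islets, against 10871 and 1984 in P10 islets. Of the 26 tested genes read on all arrays, 23 had all adult arrays below all P10 arrays and 2, Enpep and Cubn, had them above, while Gucy2c overlapped. Among the 11177 named genes tested and read on all arrays, these shares were 42.8% below and 35.2% above. Of the 27 enterocyte genes tested, 7 were well above background on no adult array and were tested only through the P10 arrays. They could hardly come out other than lower, and both the 24 called lower and the 23 below hold them.

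**Figure D1:**
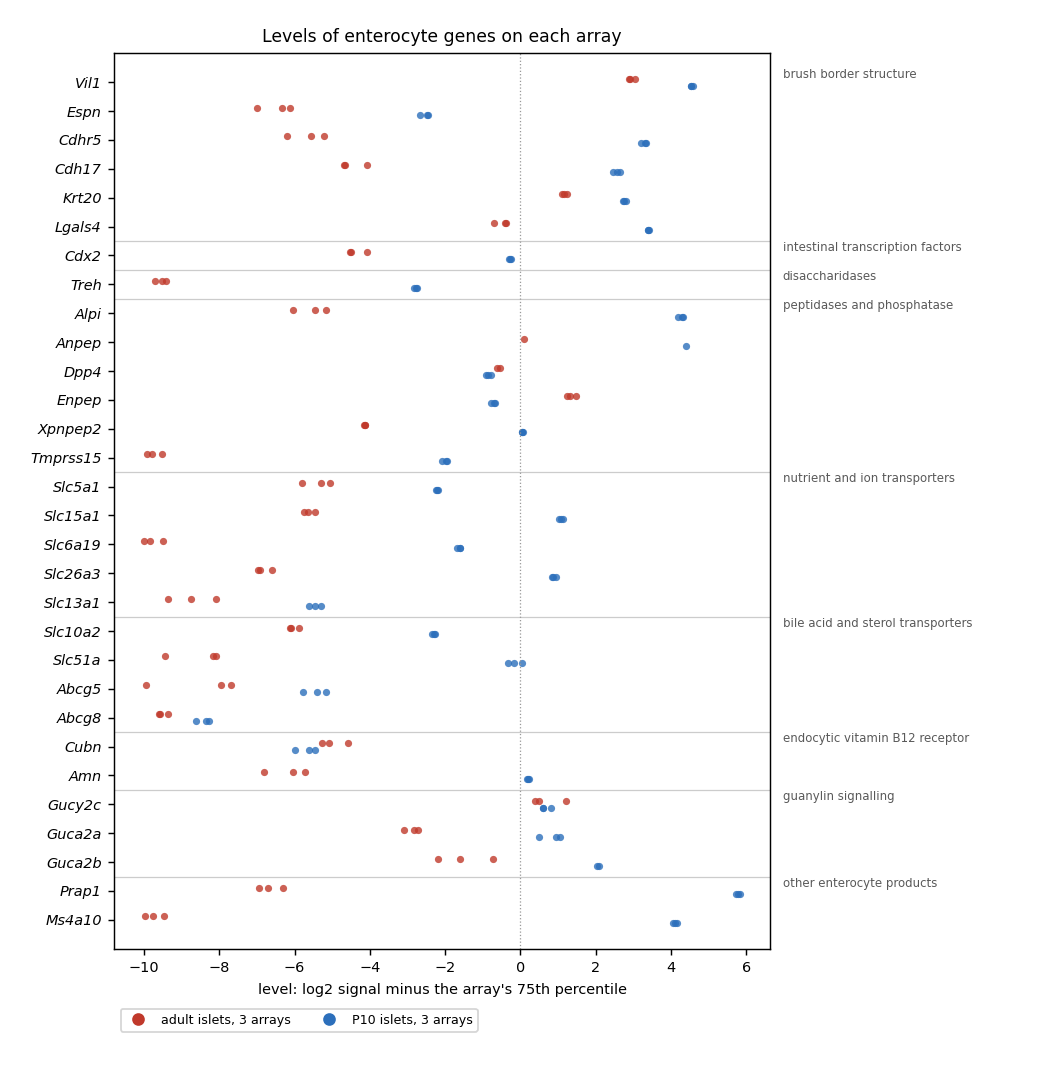
Level of each measured enterocyte gene on each array (log2 signal minus the 75th percentile of that array), grouped by role; each point is 1 array, red for adult and blue for P10 islets. Most genes lie several log2 units lower on the adult arrays, Enpep and Cubn lie higher there, and Gucy2c overlaps between the stages.

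Stretches upstream of the genes with the motifs of intestinal factors are shown because they hold the letters searched for beside the Cdx2 result. Promoters of 300 bases, 250 before and 50 after the start, were taken from RefSeq on build GRCr8 for 27 of the 30 measured genes, and both strands were searched. The Cdx letters TTTATG occurred in 5 of the 27 (18.5%), against 12.7% of all 33469 promoters. The HNF4 letters CAAAGTCCA occurred in 2 (7.41%), against 0.391% of all, and the GATA letters AGATAAG in 5 (18.5%), against 2.87% of all, where Abcg5 and Abcg8 share a match. An HNF1 motif occurred in 0 of 27, against 0.0329% of all. No match in these genes overlapped another, and a match is a description of letters, not a site. Ms4a10 held Cdx matches at -246 and -37 from its start, and only the nearer one is shown. The lines below run 5′ to 3′ on the strand given, with the matched letters in capitals, which read TTTATG or its reverse complement CATAAA for Cdx. They come from chr1:217049347-217049418 (minus strand), chr1:205811143-205811218 (minus strand), chr11:31289253-31289328 (minus strand), chr16:91087922-91087997 (plus strand) and, with an HNF4 match after the Cdx one, chr1:93252035-93252116 (plus strand).
Ms4a10: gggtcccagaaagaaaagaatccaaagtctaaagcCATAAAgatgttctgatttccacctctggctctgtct
Cdhr5: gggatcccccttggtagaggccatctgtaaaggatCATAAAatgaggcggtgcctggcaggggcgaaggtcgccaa
Tmprss15: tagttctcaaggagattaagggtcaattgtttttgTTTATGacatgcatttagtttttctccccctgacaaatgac
Slc10a2: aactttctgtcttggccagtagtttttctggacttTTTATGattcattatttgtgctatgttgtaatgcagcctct
Lgals4: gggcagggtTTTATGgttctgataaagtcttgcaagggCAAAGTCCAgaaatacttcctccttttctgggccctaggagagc

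The other HNF4 match lay before Alpi at chr9:95224781-95224859 (minus strand), and Guca2a held 2 GATA matches, both as the reverse complement, at chr5:138522260-138522359 (plus strand). They are shown because Alpi had the largest difference among the enzymes and Guca2a is the ligand of a receptor that was not called.
Alpi: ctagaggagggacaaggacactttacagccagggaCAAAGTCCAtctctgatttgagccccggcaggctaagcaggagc
Guca2a: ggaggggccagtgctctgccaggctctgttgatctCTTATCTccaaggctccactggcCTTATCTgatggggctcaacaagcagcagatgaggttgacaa

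Structural genes of the brush border were lower in adults in 6 of 6 tested, with a median difference of -4.00. Cdhr5, a protocadherin of the microvillus tips, had levels of -6.21, -5.23 and -5.56 in adult islets, against 3.31, 3.34 and 3.22 in P10 islets. Every adult array lay far below every P10 array, and the P10 arrays lay within a narrow band. The difference was -9.07 (SE 0.32), or 539-fold lower, the largest of the structural genes. It was -8.66 with quantile normalization, and the fold is approximate because the gene was dim on the adult arrays. Krt20, a keratin of differentiated gut epithelium, had levels of 1.25, 1.12 and 1.15 in adult islets, against 2.73, 2.79 and 2.75 in P10 islets. Its stages did not overlap either, and the difference was -1.57 (SE 0.13), or 2.96-fold lower. Vil1, the actin-bundling villin, was close to it at -1.62 (SE 0.13), and these were the smallest of the structural genes in an order that turned with quantile normalization (-1.59 for Krt20 and -1.47 for Vil1). Vil1 had mean levels of 2.94 ± 0.07 in adult islets and 4.56 ± 0.02 in P10 islets (SD, n = 2 each). Cdh17, an intestinal cadherin, was lower by a difference of -6.96 (SE 0.25). Espn, which also bundles actin, and Lgals4, a galectin of the gut epithelium, had differences of -4.05 (SE 0.31) and -3.95 (SE 0.17). With quantile normalization these were -3.50 and -3.92.

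Cdx2, a homeobox factor that directs intestinal identity, had levels of -4.07, -4.49 and -4.53 in adult islets, against -0.31, -0.26 and -0.28 in P10 islets. The probe gave a clear signal on each array, and the adult arrays lay below all P10 arrays. The difference was -4.01 (SE 0.20), or 16.1-fold lower in adults, and on the shared slide it was -3.79.

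Where a gene was well above background on no adult array, its fold is a lower limit: the P10 mean is set against the mean of, per adult array, the higher of the probe's own signal and the lowest signal among probes well above background, and such limits are approximate. Folds of genes that were dim but well above background on the adult arrays are approximate too, since they depend on background subtraction and scaling. Treh, which splits trehalose, was the only disaccharidase with a probe. Its levels were -9.70, -9.53 and -9.42 in adult islets, none of them well above background, against -2.82, -2.78 and -2.75 in P10 islets. Treh was therefore at least 38.1-fold lower in adults.

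Among the peptidases and the phosphatase, 3 of 4 tested were lower in adults and 1 was higher. Alpi, the intestinal alkaline phosphatase, had levels of -6.04, -5.17 and -5.46 in adult islets, against 4.28, 4.19 and 4.32 in P10 islets. On the scanner's own scale its processed signal was 39.8, 56.8 and 44.3 in adult islets, against 19793.3, 17695.4 and 20032.2 in P10 islets. The stages lay far apart, with a difference of -9.96 (SE 0.29), or 995-fold lower in adults. With quantile normalization it was -9.46, and with adult signals this dim the fold is approximate. Tmprss15, the enteropeptidase that activates trypsinogen, was well above background on no adult array and on all P10 arrays, and was at least 65.9-fold lower in adults. Xpnpep2, an aminopeptidase P, had a difference of -4.19 (SE 0.13).

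Enpep, aminopeptidase A, went the other way. Its levels were 1.48, 1.24 and 1.31 in adult islets, against -0.68, -0.70 and -0.77 in P10 islets, so every adult array lay above every P10 array. The difference was 2.11 (SE 0.15), or 4.31-fold higher in adults, the smallest in size among the tested enzymes. With the uneven spots kept, a choice made after the data were seen, Anpep, aminopeptidase N, had levels of 0.06, 0.48 and -0.05 in adult islets, against 4.46, 4.46 and 4.36 in P10 islets. That difference was -4.27 (SE 0.14). Dpp4, which inactivates incretin hormones, had levels of -0.51, -0.58 and -0.67 in adult islets and -0.95, -0.91 and -0.81 in P10 islets with the same choice. The Dpp4 stages did not overlap, by a difference of 0.30 (SE 0.14) that was not called.

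**Figure D2:**
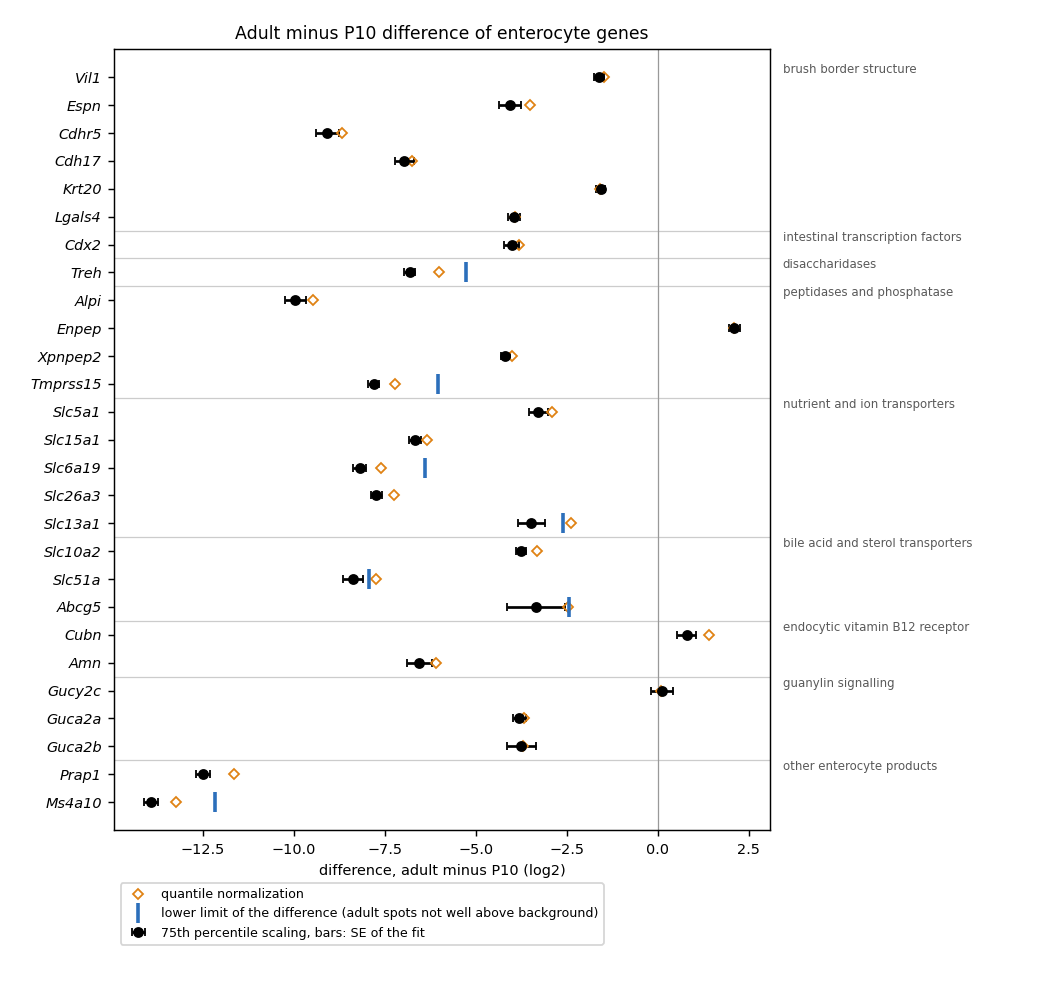
Difference of each tested enterocyte gene, adult minus P10 (log2), with the SE of the fit as bars, the quantile-normalized value as an open diamond and a blue tick for the limit where no adult spot was well above background. The fitted values run from -13.93 for Ms4a10 to 2.11 for Enpep, and only Enpep, Cubn and Gucy2c lie above 0.

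All 5 nutrient and ion transporters with a probe were lower in adults, with a median difference of -6.67 (-6.39 with limits in place of unmeasured adult levels). Slc6a19, which carries neutral amino acids, had levels of -9.99, -9.84 and -9.49 in adult islets, against -1.61, -1.61 and -1.67 in P10 islets. No adult spot was well above background, and the gene was at least 83.6-fold lower. Slc26a3, a chloride-bicarbonate exchanger, was measurable in both stages and had a difference of -7.74 (SE 0.15), or 213-fold lower. Its difference was -7.24 with quantile normalization, and the fold is approximate because the gene was dim on the adult arrays. Slc15a1, the peptide transporter, had a difference of -6.67 (SE 0.15), and its other probe gave -5.05. Slc5a1, the sodium-glucose cotransporter, had levels of -5.81, -5.06 and -5.30 in adult islets, against -2.21, -2.19 and -2.23 in P10 islets. The stages did not overlap, and the difference was -3.28 (SE 0.26), or 9.70-fold lower. It was -2.89 with quantile normalization. Slc13a1, a sulfate transporter, was well above background on no adult array and at least 6.03-fold lower, and it was not called with normexp background correction (difference -1.25).

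The bile acid and sterol transporters were lower in adults in 3 of 3 tested, with a median of -3.76. Slc51a, an exporter of bile acids on the basolateral side, had levels of -8.17, -8.09 and -9.44 in adult islets, none well above background, against -0.32, -0.16 and 0.05 in P10 islets. It was at least 242-fold lower. Slc10a2, which takes up bile acids in the ileum, had a difference of -3.76 (SE 0.14), or 13.6-fold lower. Abcg5 and Abcg8 encode the partners of a sterol exporter. Abcg5 had levels of -9.94, -7.96 and -7.68 in adult islets, against -5.41, -5.16 and -5.78 in P10 islets, and adult array 1 lay 2.12 below the mean of the other adult arrays. Its stages did not overlap, it was well above background on no adult array, and it was at least 5.42-fold lower. It was not called with normexp background correction (difference -1.16). Abcg8 had levels of -9.57, -9.59 and -9.35 in adult islets and -8.26, -8.36 and -8.62 in P10 islets, none well above background, and no fold is given. Its processed signal was 3.5, 2.6 and 3 in adult islets and 3.3, 2.9 and 2.6 in P10 islets. The gap in its levels therefore reflects the higher percentile subtracted on the adult arrays and is not read as a fall. That percentile was 10.93 to 11.36 on the adult arrays and 9.92 to 9.99 on the P10 arrays, and it enters the difference of every gene.

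Abcg8 and Abcg5 are read in opposite directions from starts that lie 206 bases apart. The stretch between them, chr6:15717731-15717935 (plus strand), is shown because the pair differed in whether it was detected at P10, and it holds a GATA match in capitals.
Abcg5 and Abcg8: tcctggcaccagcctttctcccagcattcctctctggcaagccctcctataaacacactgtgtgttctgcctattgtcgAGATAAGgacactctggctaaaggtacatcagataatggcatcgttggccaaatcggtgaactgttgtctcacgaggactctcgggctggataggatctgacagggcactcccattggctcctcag

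Amn and Cubn form the receptor that takes up vitamin B12 bound to intrinsic factor in the ileum. Amn had levels of -6.81, -5.73 and -6.03 in adult islets, against 0.19, 0.22 and 0.20 in P10 islets. The difference was -6.54 (SE 0.36), or 93.3-fold lower in adults. Cubn had levels of -4.57, -5.09 and -5.28 in adult islets, against -5.99, -5.46 and -5.62 in P10 islets. Its adult arrays all lay above the P10 arrays, but the difference of 0.79 (SE 0.26) was not called, and it was 1.42 and called with quantile normalization, where 28.7% of all probes tested were lower and 28.4% higher. The difference between the Amn and Cubn changes was not tested.

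The guanylin genes encode ligands, which were lower in adults, and a receptor, which was not called. Guca2a, which encodes guanylin, had levels of -3.09, -2.84 and -2.71 in adult islets, against 0.51, 1.05 and 0.94 in P10 islets. The stages did not overlap, and the difference was -3.80 (SE 0.18), or 13.9-fold lower in adults. Guca2b, which encodes uroguanylin and starts 11764 bases from Guca2a on the opposite strand, had levels of -2.20, -1.59 and -0.73 in adult islets, against 2.09 and 2.04 on P10 arrays 1 and 3. Its spot on P10 array 2 was left out as uneven, and the difference was -3.74 (SE 0.39). Gucy2c, their receptor guanylate cyclase C, had levels of 1.21, 0.49 and 0.40 in adult islets, against 0.61, 0.60 and 0.82 in P10 islets. The stages overlapped, and the difference of 0.12 (SE 0.31) was not called; it was 0.54 and called on the shared slide, where adult array 1 stands alone for adults.

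The other enterocyte products had the largest differences of the 27 genes. Prap1, a proline-rich acidic protein of the gut, had levels of -6.93, -6.30 and -6.71 in adult islets, against 5.83, 5.80 and 5.73 in P10 islets. Its processed signal was 21.4, 25.9 and 18.6 in adult islets, against 57919.7, 53786.4 and 52999.8 in P10 islets. The difference was -12.49 (SE 0.20), or 5756-fold lower in adults. It was -11.65 with quantile normalization, and with adult signals this dim the fold is approximate. Ms4a10 had levels of -9.97, -9.76 and -9.46 in adult islets, none well above background, against 4.07, 4.12 and 4.17 in P10 islets. It was at least 4573-fold lower in adults.

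Within a stage the genes varied far less. P10 array 3 lay within 0.25 of the mean of the other P10 arrays for 25 of the 27 genes (92.6%), against 86.6% of named genes. Adult array 1 lay within 0.25 of the mean of the other adult arrays for 8 of 27 (29.6%), against 40.2% of named genes. It lay below that mean for 19 of 27, and for 7129 of the 11404 named genes tested. The median of those adult deviations was -0.27 over the 27 genes and -0.14 over all named genes. Adult array 1 was also on another slide than the other adult arrays, so animal and slide cannot be told apart in this contrast.

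**Figure D3:**
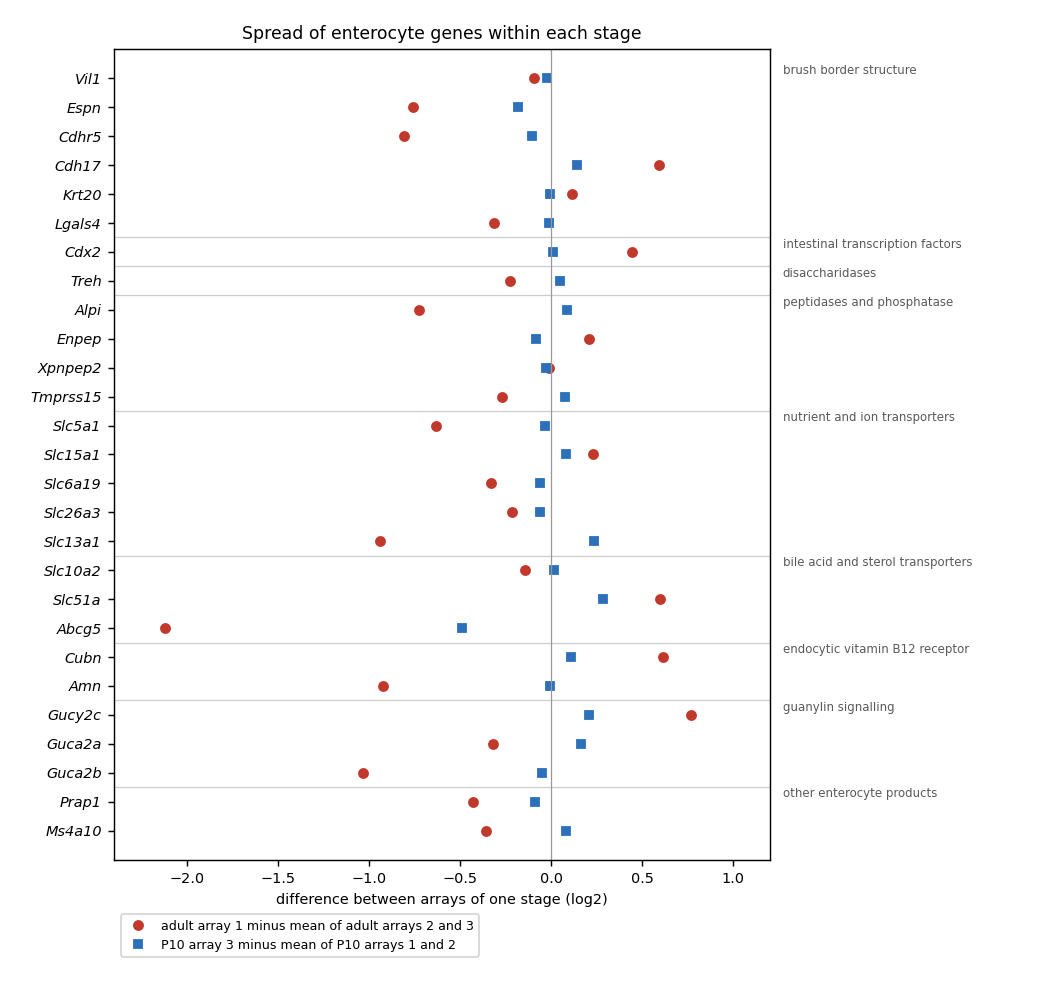
Spread within each stage (log2) for the 27 tested enterocyte genes: adult array 1 minus the mean of adult arrays 2 and 3 (red circles) and P10 array 3 minus the mean of P10 arrays 1 and 2 (blue squares). The P10 values run from -0.49 to 0.29, and the adult value of Abcg5 reaches -2.12.

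Other genes listed for absorptive cells, in lists also drawn up with earlier results known, were lower in adults in 56 of 71 tested. Of the 71, 6 were higher and 9 were not called, and the median was -2.19. Over all named genes tested, 28.8% were called lower and 23.7% higher, and these shares stand beside each list count here and below. Genes tested only through the P10 arrays are among the 71, 5 of them well above background on no adult array. The lipid absorption genes were lower in 11 of 12, with a median of -5.31. Fabp1, the liver-type fatty acid binding protein, had levels of -9.95, -9.85 and -7.03 in adult islets, with only the last well above background, against 6.62, 6.71 and 6.67 in P10 islets. Apobec1, which edits apolipoprotein B mRNA, had a difference of -0.28 (SE 0.14), not called. The other brush border hydrolases were lower in 10 of 10, with a median of -3.30, and Enpp7, an alkaline sphingomyelinase, was at least 6.86-fold lower. The other absorptive transporters were lower in 14 of 21 and higher in 2, with a median of -1.87. Slc9a3, a sodium-proton exchanger, fell furthest at -6.89 (SE 0.37), and Slc28a1, a nucleoside carrier, was highest at 1.30 (SE 0.57), not called.

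Of the genes listed as other microvillus machinery 6 of 8 were lower and 2 higher, with a median of -1.31. Pdzk1, a scaffold for transporters, was at least 720-fold lower. The 2 higher were Minar2 at 3.06 (SE 0.25) and Cdhr1 at 1.08 (SE 0.13). Neither is an established gene of the enterocyte microvillus, but both stay in the counts. The genes called lower were not sifted in this way, so the list is given as a description only. All 3 genes of the ileal bile acid response were lower, from Nr0b2, the repressor SHP, at -5.17 (SE 0.13) to Nr1h4, the bile acid receptor FXR, at -1.36 (SE 0.15). The other transcription factors were lower in 7 of 10 and not called in 3, with a median of -0.81. Gata5 had levels of -8.98, -7.40 and -7.84 in adult islets, well above background on 1 array, against -2.28, -2.34 and -2.39 in P10 islets, and Klf4 had a difference of 0.29 (SE 0.20), not called. Among 7 genes known from the suckling gut 5 were lower and 2 higher: Cps1, a urea cycle enzyme, fell by a difference of -7.50 (SE 0.18) and Ass1, of the same cycle, rose by 1.90 (SE 0.17).

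Markers of other cells are given beside these results, and the part in them of those that differed between the stages was not tested. For each list the share over all named genes tested is again 28.8% lower and 23.7% higher, and nothing is read from a list near it. With quantile normalization, 28.7% of all probes tested were lower and 28.4% higher. Goblet cell markers were lower in adults in 6 of 7 tested, with list mean levels of -2.14 to -1.84 in adult islets and 0.98 to 1.18 in P10 islets. Gastric markers were lower in 5 of 5, at -3.71 to -3.49 in adult islets and -0.36 to -0.27 in P10 islets; Atp4b of the acid pump was well above background on no array. Enteroendocrine markers were lower in 4 of 6 and higher in 1, at -2.79 to -2.52 in adult islets and -0.18 to -0.11 in P10 islets. Paneth cell markers were lower in 1 of 6, higher in 4 and not called in 1. The list was mixed: Mmp7 rose by 5.77 and Defa24 fell by a difference of -2.65, while Defa5 at -0.93 was not called. List means were -2.59 to -2.02 in adult islets and -3.84 to -3.55 in P10 islets. Of the intestinal stem cell markers Lgr5 was well above background on no array, 1 of the 2 tested was lower, and means were -2.67 to -2.56 in adult islets and -1.95 to -1.76 in P10 islets. Tuft cell markers were not called in 3 of 3, at -2.83 to -2.50 in adult islets and -2.38 to -2.30 in P10 islets.

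Smooth muscle markers were higher in adults in 3 of 4, at 2.36 to 2.51 in adult islets and 0.90 to 1.01 in P10 islets. Kidney markers were lower in 2 of 7, at -4.67 to -4.10 in adult islets and -3.42 to -3.13 in P10 islets, and Slc34a1, a proximal tubule phosphate carrier, was well above background on no array. Hepatocyte markers were lower in 4 of 8 and higher in 3, at -2.20 to -1.96 in adult islets and -1.79 to -1.62 in P10 islets, with a median of -0.19 that was 0.03 with quantile normalization. Acinar markers were lower in 15 of 17, at 4.57 to 4.99 in adult islets and 6.56 to 6.63 in P10 islets, but in 6 with quantile normalization, where 1 was higher. Duct markers were lower in 5 of 7 and higher in 2, at 2.33 to 2.42 in adult islets and 3.23 to 3.24 in P10 islets. The endocrine markers that define islets were well above background on every array for 16 of 16, higher in adults for 11 and lower for 2, at 4.70 to 4.97 in adult islets and 3.26 to 3.32 in P10 islets. The lower ones, Ins1 at -0.93 and Gcg at -0.80, turned to 0.18 and 0.32 with quantile normalization, where 13 of the list were higher and 0 lower and its median was 2.46 in place of 1.78.

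**Figure D4:**
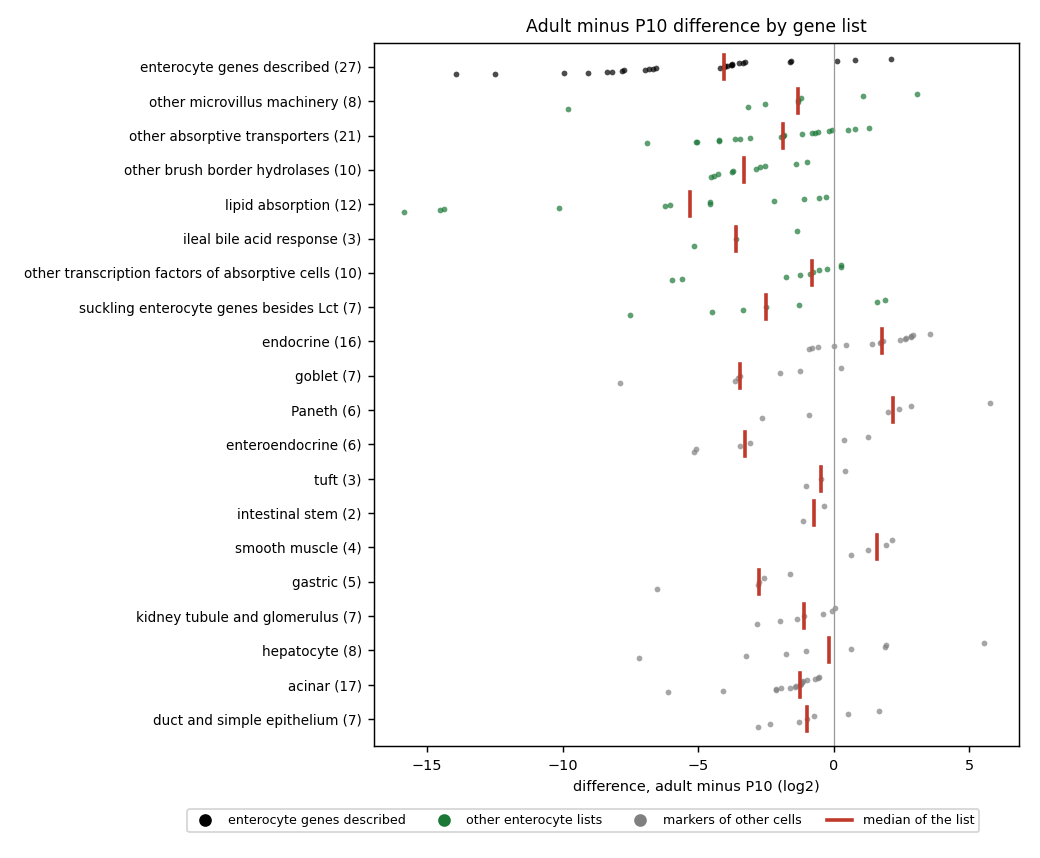
Difference of each tested gene, adult minus P10 (log2), by list, with the number tested in brackets and a red bar at each median; black points are the enterocyte genes described, green the other enterocyte lists and grey the markers of other cells. The medians run from -5.31 for lipid absorption to 2.20 for Paneth cell markers.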

How the data were processed

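Islet RNA from 6 samples, 3 per stage, was read on 1-colour Agilent arrays of lncRNA and mRNA probes. Scanner files were deposited with a processed intensity per spot, already background-subtracted per the file headers. The submitters' processing notes name Agilent Feature Extraction, version 11.0.1.1. The authors' deposited mRNA table holds normalized log2 values, which served as an alternative, and it lists 19 of the enterocyte genes; its lncRNA counterpart was not used here. How the authors normalized it is not given in the sources used here.

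Control spots and spots flagged as outliers were left out, log2 intensity minus the 75th percentile of each array was taken, and spots of a probe were averaged. Each enterocyte probe had 1 spot. Probes well above background on every array of at least 1 stage, and measured in each counted sample, were tested with limma 3.58.1 in R 4.3.3 (lmFit and eBayes, Benjamini-Hochberg over all probes), after tests on simulated data. Over 2947 probes printed 3 times, the variance between arrays relative to that of spots was 1.10 between adult arrays 2 and 3. Between P10 arrays 1 and 2 it was 0.757, against 17.3 and 14.4 for adult array 1 and its partners. It was 0.960 and 0.890 for P10 array 3. The mean correlation of differences between spots was 0.08 for adult arrays 2 and 3, -0.01 for P10 arrays 1 and 2, and 0.16 and 0.10 for P10 array 3 with each of them. P10 array 3 was kept apart although these values hardly differ from those of the averaged adult pair. Counting all P10 arrays as 1 sample, which takes the probes called from 9611 to 4043, is therefore an alternative, added after the data were seen, as is keeping flagged spots.

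The enterocyte genes and all lists were chosen with earlier results of these data known. Every measured gene is accounted for by role; all array values are given for the largest and smallest differences of each role and for genes higher in adults, and from the other enterocyte lists the extremes are named, except 1 that is not reported here. Symbols were updated through RefSeq transcripts on GRCr8; the array's own coordinates are on another build and were not used.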

Additional observations from a re-analysis of the deposited data

How the results depend on the processing

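With 24 lower, 1 higher and a median of -4.05 as reported, the number lower was 22 to 25 under every alternative except the authors' table, where it was 16 of the 19 genes listed. The number higher was 2 with every array as its own replicate, with quantile normalization and with the authors' table, and 3 with the slide as a block and on slide 1 alone. The median was -3.47 with normexp on the median spot signal (the mean was not a column of the files). Leaving out 1 array at a time gave 23 to 24 lower, 1 to 2 higher and medians of -4.14 to -3.99. Cubn joined the higher genes in these cases and without adult array 1 or 3, Gucy2c did with the slide as a block and on slide 1 alone, and Slc13a1 and Abcg5 were no longer called with normexp; the cause was not tested. Slide 1 alone has a single adult array, which is assumed to vary like the P10 arrays, as is a stage left with 1 sample elsewhere. The shares of all probes called lower and higher were 41.2% and 29.3% with every array as its own replicate, 27.9% and 30.3% in the authors' table, 37.5% and 26% with the replicate block, and 13.9% to 41.3% and 8.61% to 32% with 1 array left out. Over all probes, 5699 lower and 3912 higher became 5277 and 5216 with quantile normalization and 4638 and 5087 with median scaling. They were 2723 and 2127 with normexp, 2564 and 1585 without P10 array 3, 2483 and 1560 with the P10 arrays as 1 sample, and 9052 and 5585 with the slide as a block. Same-numbered arrays did not deviate together (r = -0.32, 0.09 and -0.36); with the replicate number as a block 23 were lower, 1 higher, and the median was -4.14.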
